A study of Homo sapiens with 6 samples.

Results

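The genes described here are XAF1 and 7 genes of the caspase pathway it acts on: the inhibitors XIAP and BIRC2, the inhibitor antagonists DIABLO and HTRA2, the adaptor APAF1, and the caspases CASP6 and CASP9. They were chosen by name from the deposited table, where all 8 were found among 54261 genes. A549, the source of the RNA, is an established cell line from a human lung adenocarcinoma, grown with fetal bovine serum. SNHG17, a long noncoding RNA, was knocked down by siRNA for 3 libraries (si-SNHG17), and 3 others (si-NC) are labelled as control. The comparison asks how transcripts respond to lower SNHG17. Neither the siRNA sequences nor the time after transfection is given in the sources used here. Nothing in the labels says that the 3 libraries of a group came from separate cultures. Every p-value is therefore set against a spread that may be technical.

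In the mitochondrial route to apoptosis, cytochrome c leaves the mitochondrion and binds APAF1, which assembles into the apoptosome and activates the initiator caspase CASP9. CASP9 then cleaves the executioner caspases. Inhibitor of apoptosis proteins (IAPs) restrain this route: XIAP binds and blocks caspases directly, while BIRC2 (cIAP1) acts mainly as a ubiquitin ligase in tumour necrosis factor signalling. DIABLO (also called SMAC) and the protease HTRA2 leave the mitochondrion with cytochrome c and displace IAPs from caspases, and XAF1, an interferon-inducible zinc finger protein, binds XIAP and opposes it. Of the members, CASP6 is an executioner and CASP9 an initiator, so the description of the caspases as effectors fits CASP6 alone.

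Total counts ran from 8643076 to 12477214 per library. SNHG17 itself was at 7.82, 8.39 and 11.3 CPM (counts per 1000000, on TMM-scaled library sizes) in si-SNHG17 and at 38.7, 36.2 and 51.4 CPM in si-NC, so the targeted RNA was at 21.8% of control. Among si-NC libraries, replicate 3 stood apart, with a chi-square per degree of freedom of 8.85 and 8.40 against replicates 1 and 2, which differed from each other by 2.25. Of 10 epithelial and lung markers 1 (SFTPB) had no count. KRT8 and KRT18 led the list, but EPCAM was at 1.53 ± 0.202 CPM and NKX2-1 at 0.299 ± 0.0735 CPM in si-NC (SD, n = 3). The summed list ran from 8431 to 9443 CPM in si-NC and from 5001 to 5014 CPM in si-SNHG17, most of it KRT8 and KRT18. These 2 genes, CDH1 and CLDN4 passed as lower. KRT19 of the same list rose from 86.0 ± 10.1 to 116.3 ± 5.51 CPM (log2 fold change 0.43, edgeR adjusted p = 0.00232). PTPRC and CD3E were at 0 among 7 immune markers, while the summed list ran from 212.8 to 298.1 CPM in si-NC and from 499.4 to 597.8 CPM in si-SNHG17, most of it CD68, which rose from 197.5 ± 41.4 to 511.9 ± 48.8 CPM. CD14 of the same list fell from 36.1 ± 6.54 to 19.6 ± 1.55 CPM (log2 fold change -0.88, edgeR adjusted p = 0.000169), and ITGAM passed as higher (0.50, adjusted p = 0.0256). The summed list of 8 stromal and endothelial markers ran from 41.2 to 54.2 CPM in si-NC and from 37.5 to 48.1 CPM in si-SNHG17. THY1 of this list passed as lower (log2 fold change -0.49, edgeR adjusted p = 0.0149), and COL1A1 did not pass (0.06). What part these shifts have in the results was not tested.

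The start of XAF1 is shown because XAF1 had the largest change of the members and is classed as interferon-inducible. The RefSeq sequence (GRCh38.p14, plus strand, chr17:6755796-6756075) runs from 250 bases before to 30 after an annotated start. Capitals mark each match to AANNGAAA, the core bound by interferon regulatory factors, searched on both strands.

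XAF1 promoter: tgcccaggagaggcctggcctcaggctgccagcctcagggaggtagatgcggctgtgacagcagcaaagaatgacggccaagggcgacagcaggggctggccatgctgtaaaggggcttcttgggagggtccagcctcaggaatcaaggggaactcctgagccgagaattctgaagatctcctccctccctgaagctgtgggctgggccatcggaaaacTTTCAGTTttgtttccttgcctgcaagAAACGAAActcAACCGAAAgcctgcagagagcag

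This stretch held 3 matches, which began 31 and 4 bases before the start and 7 bases after it; the first is on the reverse strand. Of 35116 RefSeq promoter windows of 300 bases, 22.8% held at least 1 match and 1.25% at least 3. The second annotated XAF1 start had 1 match in its window. All 8 members matched this table, with 17 windows between them. Outside XAF1 the core was found once, in 1 of the 4 DIABLO windows. The longer element GAAANNGAAA, which contains the core and occurs in 3.57% of windows, was in no window of a member. The NF-kB pattern GGGANNNNCC was in 25.6% of all windows, with at least 2 matches in 5.53% and at least 3 in 1.025%. It matched 3 times in the CASP6 window, at 2 places in the first BIRC2 window, at 1 place in the APAF1 window, and in at least 1 window each of XAF1, XIAP and DIABLO, but not in the windows of HTRA2 or CASP9. The interferon-gamma pattern TTCNNNGAA, found in 7.66% of all windows, was in none of the members' windows. The motifs were chosen with the rise of XAF1 known, and a match describes letters, not binding.

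XAF1, the antagonist of XIAP, rose about 5-fold. Its 193, 258 and 200 counts in the si-SNHG17 libraries were 20.1, 20.6 and 22.8 CPM, against 36, 31 and 58 counts, or 4.10, 3.06 and 5.43 CPM, in si-NC. Every si-SNHG17 library lay above every si-NC library. On the log2 scale the change was 2.32 ± 0.186 (standard error), and its adjusted p by edgeR's quasi-likelihood test was 4.80e-07 over 15614 genes tested. Only 58 genes, 0.371% of those tested, had a larger log2 fold change. RefSeq (GRCh38.p14) places XAF1 at chr17:6755447-6775647. In bulk RNA, more cells that express a gene and more RNA per cell cannot be told apart. An exact two-sided permutation test on log2 CPM cannot go below p = 0.1 with 3 against 3 libraries, and it reached that value for each of XAF1, BIRC2, APAF1 and CASP6.

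**Figure D1:**
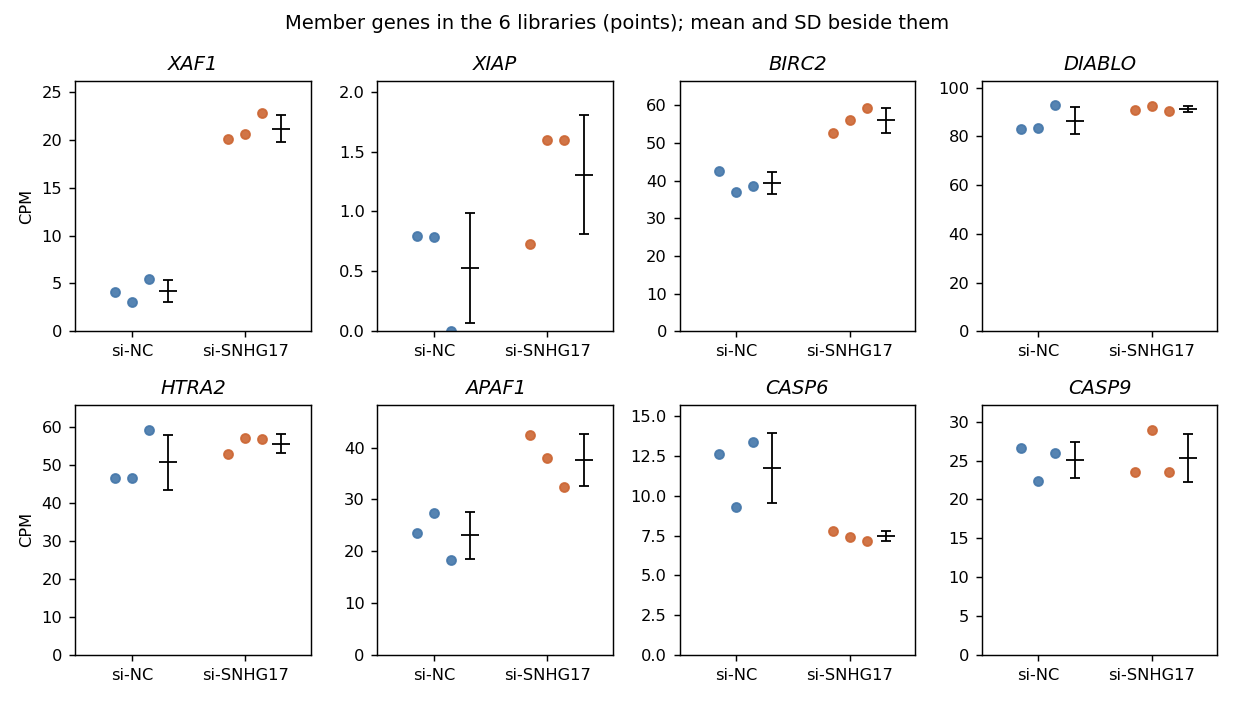
CPM (y axis, from 0) of each of the 8 genes in the 3 si-NC and 3 si-SNHG17 libraries, shown as points in replicate order with the group mean and SD beside them. XAF1, BIRC2 and APAF1 have all si-SNHG17 points above the si-NC points, CASP6 has them all below, and the points of the other 4 genes overlap.

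Of the 8 members, 7 had enough counts to be tested, and XIAP did not. Of these 7, 4 passed an adjusted p of 0.05, against 39.1% of all genes tested. The 3 that were higher (XAF1, APAF1 and BIRC2) and the 1 that was lower (CASP6) stand beside backgrounds of 19.6% higher and 19.6% lower. The groups did not overlap for the same 4 genes, and for 49.4% of all genes tested. The members' calls therefore came against a background in which a large share of the transcriptome differed. The median log2 fold change of the 7 was 0.13, against 0.01 for all genes tested.

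XIAP, the inhibitor that XAF1 binds, was almost without reads. It had 7, 20 and 14 counts in si-SNHG17 and 7, 8 and 0 counts in si-NC, or 0.730, 1.60 and 1.60 CPM against 0.797, 0.789 and 0 CPM. The groups overlapped, since si-SNHG17 replicate 1 lay below 2 of the si-NC libraries. A count of 0 in si-NC replicate 3 allows up to 3 counts, or 0.281 CPM. Summed over libraries, the 41 counts of si-SNHG17 gave 1.33 CPM (95% exact Poisson interval 0.953 to 1.80) and the 15 counts of si-NC gave 0.507 CPM (0.284 to 0.836); these intervals cover counting error only. With no filter on low counts, edgeR put XIAP at 1.36 ± 0.519 on the log2 scale (standard error; adjusted p = 0.0422). That fit also took the edgeR adjusted p of XAF1 from 4.80e-07 to 9.37e-36 and of SNHG17 from 2.84e-07 to 7.33e-51. Its adjusted p-values are therefore not comparable with those of the filtered fit. XIAP passing there is not read as a change. With the filter, XIAP could be tested when replicate 1 of si-SNHG17 or replicate 1 or 2 of si-NC was left out, at 1.63 to 1.81 (edgeR adjusted p = 0.0819 to 0.0922). Without si-NC replicate 3, the library with no count, it was 0.72 (adjusted p = 0.267).

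The XIAP values are read counts as deposited and were not taken as its level in the cells. Several pathway genes that most cells use were also listed at or near 0, named after their values were seen: AIFM1, a mitochondrial flavoprotein, and GSN, an actin-severing protein, had no count in any library. The adaptors TAB2 and TRAF2 had 1 count in 1 si-NC library each and none elsewhere. The kinase PAK2 had 5, 4 and 5 counts in si-SNHG17 and 1, 0 and 0 in si-NC. Like XIAP it passed with no filter on low counts (log2 fold change 3.36, edgeR adjusted p = 0.0314), under the same limit. XIAP lies at chrX:123859708-123913972. GENCODE release 29 also places there XIAP-AS1 and a processed pseudogene on the other strand, and the small nuclear RNA gene RNU6-122P on its own strand. XIAP has 3 annotated pseudogenes named after it elsewhere, and the treatment of overlapping or shared reads is not given in the sources used here.

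BIRC2, the ubiquitin ligase cIAP1, rose modestly. It was at 52.8, 56.2 and 59.3 CPM in si-SNHG17 and at 42.6, 36.9 and 38.5 CPM in si-NC, so the groups were apart. The means were 56.1 ± 3.25 and 39.3 ± 2.94 CPM (SD, n = 3), a 1.43-fold difference. On the log2 scale this was 0.51 ± 0.0989 (standard error; edgeR, adjusted p = 0.000991). RefSeq places it at chr11:102347214-102378670.

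The 2 antagonists released from mitochondria did not pass the test. DIABLO was at 90.8, 92.7 and 90.3 CPM in si-SNHG17 and at 83.1, 83.6 and 92.8 CPM in si-NC. Its highest value was in si-NC replicate 3, and the log2 fold change was 0.08 (95% interval -0.101 to 0.254). HTRA2 was at 53.0, 57.3 and 57.0 CPM in si-SNHG17 and at 46.6, 46.6 and 59.2 CPM in si-NC, again with the highest value in si-NC replicate 3. The log2 fold change was 0.13 (95% interval -0.100 to 0.367, edgeR adjusted p = 0.360). Without si-NC replicate 3 it was 0.26 and passed (adjusted p = 0.0330), so the HTRA2 call depends on that library. DIABLO lies at chr12:122207662-122227456, overlapped on its own strand by the annotated gene AC048338.1, and HTRA2 at chr2:74529405-74533556, where AUP1 and LOXL3 overlap it on the other strand. Overlaps on the other strand also hold for DIABLO (B3GNT4), XAF1 (PRAL), APAF1 (ANKS1B), CASP6 (MCUB and AC004067.1) and CASP9 (CELA2B). Reads of such pairs may not be told apart.

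APAF1, the scaffold of the apoptosome, rose, while its partner CASP9 did not pass. APAF1 was at 42.4, 38.0 and 32.4 CPM in si-SNHG17 and at 23.5, 27.4 and 18.3 CPM in si-NC, with the lowest si-SNHG17 library above the highest si-NC library. On the log2 scale the rise was 0.71 ± 0.147 (standard error; edgeR, adjusted p = 0.00165). It lies at chr12:98645290-98735433. CASP9 was at 23.6, 28.9 and 23.6 CPM in si-SNHG17 and at 26.6, 22.4 and 26.0 CPM in si-NC, and the groups overlapped. Its log2 fold change of 0.03 had a 95% interval of -0.241 to 0.293, so a change as large as that of APAF1 lay outside it. CASP9 lies at chr1:15491401-15524912.

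CASP6, which cleaves lamins among other proteins, was the 1 member that fell. It was at 7.82, 7.43 and 7.18 CPM in si-SNHG17 and at 12.6, 9.27 and 13.4 CPM in si-NC. The si-SNHG17 libraries were close together and all below si-NC replicate 2, the lowest control. Its log2 fold change was -0.65 ± 0.175 (standard error; edgeR, adjusted p = 0.00918), which left 63.5% of the control mean. RefSeq places it at chr4:109664388-109709767.

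Because several of these proteins bind each other, the ratios of their transcripts were also compared in each library, with 0.5 counts added to each. The log2 ratio of CASP9 to APAF1 was -0.85, -0.39 and -0.46 in si-SNHG17 and 0.18, -0.29 and 0.51 in si-NC. It was lower in all si-SNHG17 libraries, by a mean difference of -0.70. The exact two-sided permutation test gave p = 0.1, the smallest possible, and 0.45 after Benjamini-Hochberg adjustment over the 6 ratios compared. The XAF1 to XIAP log2 ratio was 4.69, 3.66 and 3.79 in si-SNHG17 and 2.28, 1.89 and 6.87 in si-NC (exact permutation p = 1). The si-NC value of 6.87 came from the library with no XIAP count. Without that library, si-NC replicate 3, the difference in XAF1 to XIAP was 1.96, with no overlap, rather than 0.36. Its unadjusted exact permutation p was 0.1, the smallest possible with 3 against 2 libraries. Leaving out si-NC replicate 1 or 2 instead made the difference negative (-0.53 without replicate 2). The ratios of DIABLO, HTRA2, CASP9 and BIRC2 to XIAP also overlapped between groups, with exact permutation p of 0.2 to 0.5. Each of these had its highest value in si-NC replicate 3, the library with no XIAP count. Since XIAP counts are not taken as its level, no ratio to XIAP is read as a balance of the 2 genes.

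Levels of different genes were compared per kilobase of the longest coding transcript in GENCODE release 29. In si-NC, DIABLO was highest at 38.3 ± 2.42 CPM per kb and HTRA2 followed at 21.4 ± 3.08 (SD, n = 3). BIRC2 (9.67 ± 0.722) and CASP6 (7.60 ± 1.42) came next and did not overlap, while CASP6 and CASP9 (5.61 ± 0.515) were close, the lowest CASP6 library at 5.99 and the highest CASP9 library at 5.97. APAF1 (3.27 ± 0.651) and XAF1 (1.16 ± 0.329) were lower, each apart from its neighbour. The deposited counts of XIAP gave 0.0615 ± 0.0533, which for the reason given above is not read as its place among them. In si-SNHG17, XAF1 reached 5.84 ± 0.392 CPM per kb and moved from place 7 to place 4. It overlapped CASP9 (5.68 ± 0.691) and APAF1 (5.33 ± 0.716) there, and APAF1 overlapped CASP6 (4.83 ± 0.209). When all annotated exons were counted as length, HTRA2 came before DIABLO in both groups and XAF1 stayed at place 7 in si-SNHG17, so these places depend on the length chosen.

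**Figure D2:**
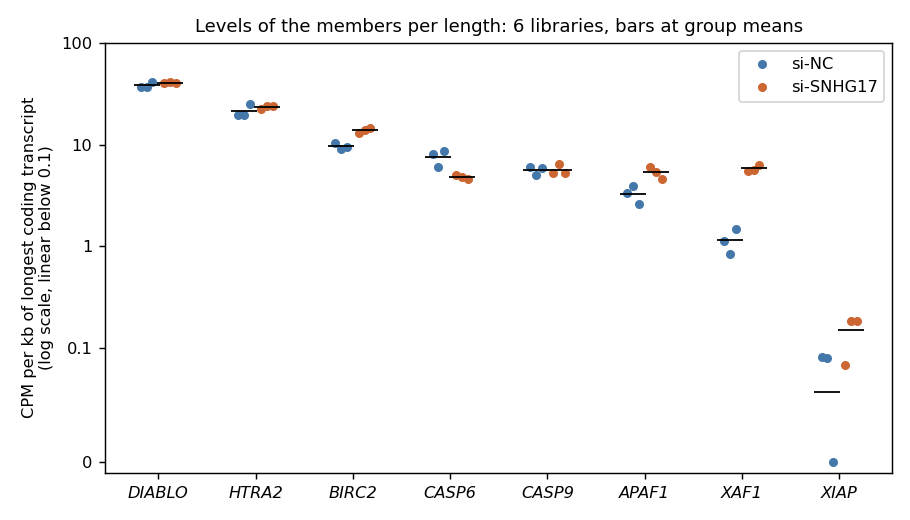
CPM per kb of the longest coding transcript (y axis, log scale that is linear below 0.1) for the 8 genes, ordered by their si-NC mean, with 1 point per library and a bar at each group mean. DIABLO lies highest near 38.3 and 40.4, the XIAP counts as deposited give values below 0.2, and XAF1 rises from 1.16 to 5.84.

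The other inhibitors of the family moved in both directions. Of 6 further IAP genes, 4 were tested, 2 rose and 1 fell. The counts of this list and of those that follow stand beside the same backgrounds, 19.6% of all genes tested higher and 19.6% lower. BIRC3 (cIAP2), a close relative of BIRC2 and a target of NF-kB, rose from 110.0 ± 9.11 to 212.3 ± 17.5 CPM (log2 fold change 0.95). BIRC7 (livin) rose from 18.3 ± 3.98 to 36.5 ± 2.53 CPM (0.99), and BIRC5 (survivin), which also serves in cell division, fell from 210.3 ± 22.2 to 83.6 ± 10.2 CPM (-1.33; SD, n = 3 for each). The giant IAP BIRC6 was at 118.7, 84.9 and 104.3 CPM in si-SNHG17 and at 133.0, 129.3 and 62.7 CPM in si-NC. It did not pass, but without si-NC replicate 3 its log2 fold change was -0.36 with an adjusted p of 0.00881 (edgeR). NAIP had 7 and 3 counts over the 3 libraries of each group and BIRC8 none. XAF1 and the inhibitors BIRC2, BIRC3 and BIRC7 were thus higher in the same libraries.

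Among the other caspases, 3 of 5 tested rose and none fell, against 19.6% higher and 19.6% lower over all genes. They were the initiators CASP8, from 44.1 ± 2.62 to 64.1 ± 2.96 CPM (log2 fold change 0.54), and CASP10 (0.80), and the inflammatory caspase CASP4, from 31.1 ± 0.666 to 52.6 ± 4.45 CPM (0.76; SD, n = 3). CASP1, which matures interleukin-1 beta, was low in all libraries, at 1.33 ± 0.731 CPM in si-NC and 2.38 ± 0.291 CPM in si-SNHG17. Its groups did not overlap, but it did not pass (log2 fold change 0.85, edgeR adjusted p = 0.102). CASP2 had few counts, at 1.25 ± 0.0639 CPM in si-NC and 0.637 ± 0.535 CPM in si-SNHG17, and its groups did not overlap either. It did not pass (-1.06), though it did without si-SNHG17 replicate 1 (-1.85, edgeR adjusted p = 0.0478). Of the initiators, CASP9 was thus not called while CASP8 was. The median log2 fold change of the 5 was 0.76, against 0.01 for all genes.

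**Figure D3:**
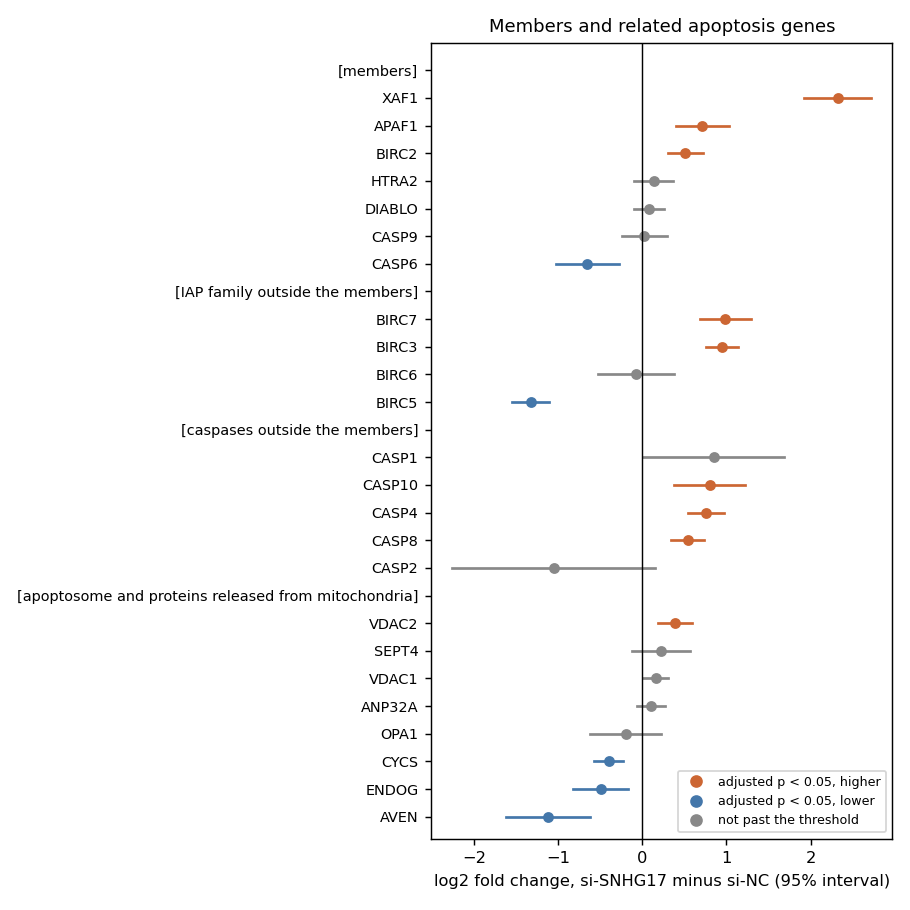
Log2 fold change of si-SNHG17 against si-NC (x axis) with its 95% interval for the 7 tested members and for the tested genes of the 3 lists nearest to them, coloured by whether edgeR's adjusted p was under 0.05. XAF1 lies farthest right at 2.32 and BIRC5 farthest left at -1.33, and the caspases outside the members that passed all lie right of 0.

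At the mitochondrial step, of 8 genes tested, 1 rose and 3 fell, with a median of -0.05. CYCS, cytochrome c itself, fell from 94.5 ± 3.08 to 71.5 ± 2.03 CPM (log2 fold change -0.40). AVEN, an inhibitor that binds APAF1, fell from 6.73 ± 1.12 to 3.10 ± 0.734 CPM (-1.12), and the mitochondrial nuclease ENDOG fell (-0.49). The ENDOG call was lost without si-SNHG17 replicate 1 or replicate 3 (edgeR adjusted p = 0.0896 and 0.0881). The outer membrane channel VDAC2 rose (0.39). The channel VDAC1 did not pass (0.16), but did without si-NC replicate 3 (0.18, edgeR adjusted p = 0.0330) and with scaling by library totals only (0.20, adjusted p = 0.0341). SEPT4, whose isoform ARTS antagonises XIAP, was at 7.80 ± 0.474 CPM in si-NC and 9.08 ± 0.749 CPM in si-SNHG17 and did not pass. APAF1 thus rose while its ligand CYCS and its inhibitor AVEN fell.

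Of 8 caspase substrates and execution genes tested, 1 passed. The DNA repair enzyme PARP1 fell from 284.1 ± 17.3 to 201.1 ± 8.12 CPM (log2 fold change -0.50). The channel PANX1 (-0.19), the nuclear factor ACIN1 (-0.11) and the scramblase XKR8 (-0.16) did not pass. LMNA, the lamin gene whose protein CASP6 cleaves, was at 609.0 ± 79.1 and 638.6 ± 45.6 CPM; without si-NC replicate 3 it passed at 0.18 (adjusted p = 0.0450). Transcript levels say nothing of cleavage of these proteins, which was not measured.

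Partners of XIAP and BIRC2 in tumour necrosis factor and NOD2 signalling went both ways. Of 9 tested, 3 rose and 4 fell, with a median of -0.02. RIPK2, the NOD2 kinase that XIAP ubiquitinates, rose from 57.3 ± 1.97 to 109.6 ± 5.99 CPM (log2 fold change 0.94). TRAF1 (0.91), which binds cIAPs, and the caspase-8 inhibitor CFLAR (0.49) rose as well, and COMMD1, a protein XIAP binds in copper metabolism, fell (-0.60). The other 3 falls, named because their calls proved unstable, were TAB1 (-0.30), RIPK1 (-0.63) and MAP3K14 (-0.33). TAB1 lost its call with every library left out except si-NC replicate 3 (edgeR adjusted p = 0.0513 to 0.122). RIPK1 lost it without si-SNHG17 replicate 1 or 2 or si-NC replicate 2 (0.0860 to 0.163), and MAP3K14 without si-SNHG17 replicate 3 (0.0826). The falls then numbered 2 without any 1 of the si-SNHG17 libraries or without si-NC replicate 2. They were also 2 with DESeq2 and with the replicate block, where both TAB1 and RIPK1 were lost.

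Other interferon-stimulated genes rose in the same libraries as XAF1. Of 24 such genes tested, a list drawn up with earlier results known, 19 rose and none fell, with a median log2 fold change of 0.82. IFIT3 went from 47.6 ± 13.7 to 182.5 ± 17.9 CPM (log2 fold change 1.93), IFI27 rose by 2.12, the ISG15 ligase HERC5 by 1.40 and DTX3L by 0.93. MX1 (0.20), OAS3 (0.05), OAS2 (-0.21), OASL (-0.20) and the low-count EPSTI1 (0.64) did not pass. With a library left out, 16 to 20 of the genes rose. Without si-NC replicate 3, MX1 passed at 0.40 (edgeR adjusted p = 0.000148). ISG20 lost its call without replicate 1 or 2 of either group (adjusted p = 0.0555 to 0.130), IFI44L without si-SNHG17 replicate 1 or 2 or si-NC replicate 2 (0.0715 to 0.118), and OAS1 without si-NC replicate 2 (0.0571). The summed CPM of the 25 listed genes was 4820, 5320 and 4884 in si-SNHG17 and 2706, 2484 and 3450 in si-NC. Within si-NC replicate 3 was highest and replicate 2 lowest for both this sum and XAF1. Within si-SNHG17 the order differed, the sum being highest in replicate 2 and XAF1 in replicate 3. Their part in the rise of XAF1 was not tested.

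Of 6 genes reported to regulate or bind XAF1, 4 rose and none fell. The metallothionein MT2A rose by 1.85 on the log2 scale, from 104.3 ± 29.7 to 375.6 ± 93.3 CPM. The transcription factors IRF1 (0.71) and IRF9 (0.65) and the ubiquitin ligase SIAH2 (0.46) rose as well. STAT2, the partner of IRF9 in the interferon response, was at 68.2 ± 4.67 CPM in si-NC and 77.2 ± 6.94 CPM in si-SNHG17 (SD, n = 3) with overlapping groups, and did not pass (0.18, 95% interval -0.0262 to 0.384). The ubiquitin ligase RNF114 did not pass (-0.15).

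**Figure D4:**
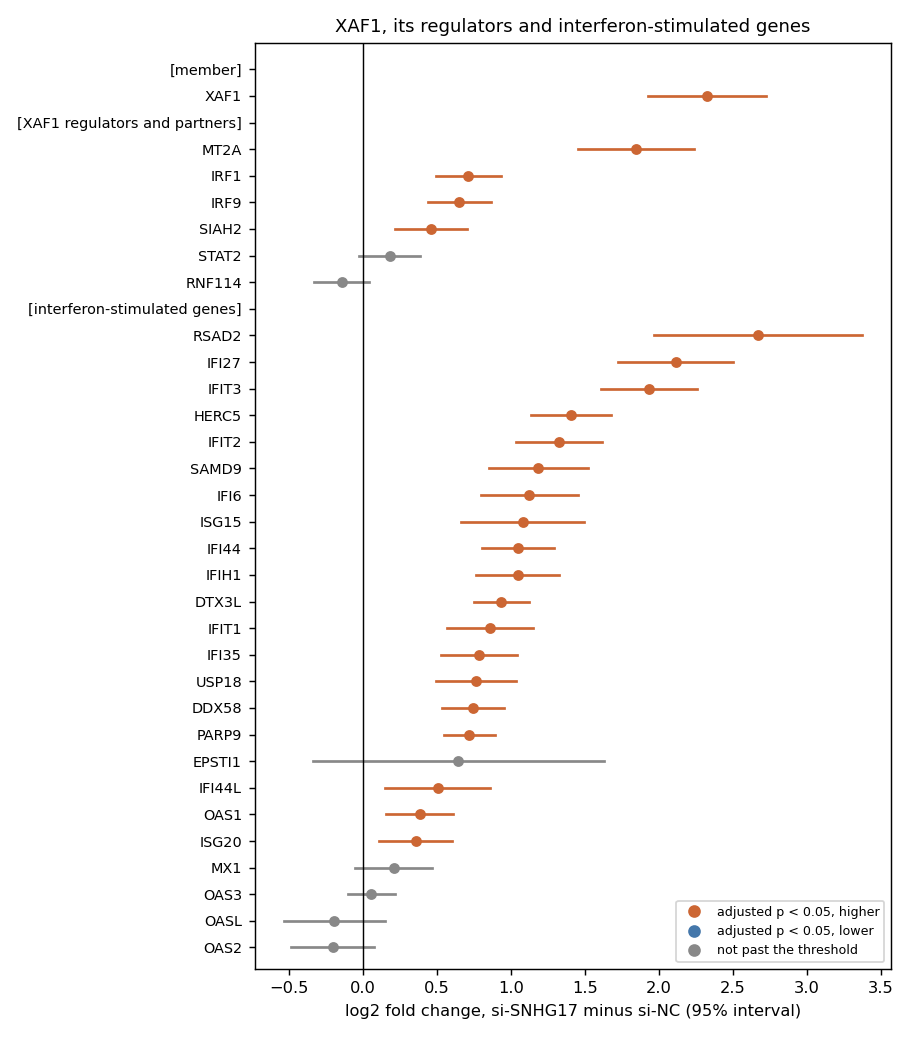
Log2 fold change of si-SNHG17 against si-NC (x axis) with its 95% interval for XAF1, 6 regulators or partners and 24 interferon-stimulated genes, coloured by whether edgeR's adjusted p was under 0.05. XAF1 at 2.32 lies beside IFI27 (2.12) and IFIT3 (1.93), only RSAD2 lies farther right (2.67), and OAS3, OAS2 and OASL lie near 0.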

How the data were processed

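Gene expression was measured as whole-number read counts per gene in 6 libraries. Trizol-extracted total RNA was made into Ion Total RNA-Seq libraries and read single-end on a Proton instrument, per the labels' protocols. The authors deposited these counts without normalization. GRCh38 is named in the submitters' processing notes; for the aligner, counting tool, annotation and use of strand, each is not given in the sources used here. Titles gave each column its group.

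The test was edgeR's quasi-likelihood test (edgeR 4.0.16, R 4.3.3) with no term but group, after filterByExpr (15614 genes kept) and TMM scaling (factors 0.975 to 1.02), with Benjamini-Hochberg adjustment over all genes tested and a threshold of 0.05. Standard errors and intervals were derived from the fitted change and its F statistic. A count of 0 in a library allows up to 3 counts, which was 0.240 to 0.342 CPM. Ratios and permutation tests were computed in Python 3.11.15 with scipy 1.17.1. The procedure was tested on simulated data. No 2 libraries held identical values, and all 6 were counted as separate.

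The members and the 7 gene lists were chosen with earlier results of these data known. Some genes of the lists are not reported here and were left out of the lists' counts, medians and plots. The genes named were SNHG17, the members, up to 4 genes of each list with the smallest p, and those past the threshold in the first 3 lists; the 5 genes most like XAF1 were added. List genes that did not pass, were listed near 0 or had unstable calls, and the markers named, were chosen after their values were seen. Alternatives were other scalings, DESeq2 1.42.0, limma-voom (limma 3.58.1), other filters, a 2-fold requirement, a replicate block, another prior in the ratios and leaving out each library.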

Additional observations from a re-analysis of the deposited data

How the results depend on the processing

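All alternatives were planned. XAF1, BIRC2 and APAF1 were higher and CASP6 lower in each of the 15 alternatives, and all 4 passed in the 14 that kept the adjusted p of 0.05 as the only requirement. Over the fits that left out a library, XAF1 ran from 2.13 to 2.57, BIRC2 from 0.47 to 0.57, APAF1 from 0.56 to 0.85 and CASP6 from -0.80 to -0.54 on the log2 scale, HTRA2 from 0.071 without si-NC replicate 2 to 0.26, and CASP9 from -0.08 to 0.081. CASP9 was -0.0821 without si-SNHG17 replicate 2 and -0.0518 without si-NC replicate 2, not past the threshold in either; the cause was not tested. BIRC6 ran from -0.36 without si-NC replicate 3 to 0.10, being 0.0476 without si-SNHG17 replicate 2, 0.0963 without si-NC replicate 1 and 0.0700 without si-NC replicate 2. The XAF1 to XIAP ratio difference ran from -0.53 without si-NC replicate 2 to 1.96, was -0.34 without si-NC replicate 1 and was 0.98 with a prior of 2 counts. Requiring 2-fold left 1465 genes, 697 higher and 768 lower, and 1 member, XAF1, by construction: BIRC2 (0.51), APAF1 (0.71) and CASP6 (-0.65) fell short. The members past the threshold numbered 4 to 5 with a library left out and 5 with no low-count filter, where XIAP passed. As said above, adjusted p-values of the fit with no low-count filter are not comparable with those of the filtered fit. Genes past the threshold ran from 4911 to 6601 with a library left out, and library totals alone gave 6138, 3407 of them higher and 2731 lower, against 3057 and 3055. The titles number the libraries alike in both groups. The replicate block gave 5579 genes, 5515 shared with the fit without it, and the same number of members, 4. Deviations of like-numbered libraries correlated at 0.08, -0.15 and -0.12, and 0 of the 6 libraries correlated best with its own number, so the numbers were not taken as pairs. Counts of 0 to 20 per library limit XIAP.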

Other observations

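The profile of XAF1 over the 6 libraries was compared with those of 11346 other genes at a mean of at least 5 CPM, as a description. The 5 with the highest Pearson r of log2 CPM were NOA1, a mitochondrial GTPase, TMEM63B, an ion channel, JUN, an AP-1 transcription factor, MYH9, a nonmuscle myosin heavy chain, and the splicing factor SF3A3. Their r ran from 0.9987 to 0.9989. Of the genes compared, 116 had r over 0.99, and all of them share the same 6 libraries, whose main split is between the groups. JUN went from 41.2 to 117.8 CPM (log2 fold change 1.51), while the other 4 had log2 fold changes of 0.52 to 0.60, far smaller than the 2.32 of XAF1. No gene of the interferon-stimulated list was among these 5. How many of that list were among the 116 was not counted, so this absence does not set XAF1 apart from them.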
